A study of Drosophila melanogaster with 9 samples.

Results

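Long noncoding RNAs and natural antisense RNAs were examined in *Drosophila* S2 cells that had been switched from mitotic cycles to endoreplication. Members were the genes whose symbol contains CR and a 5-digit number and whose mean CPM (the count over the library total, scaled to 1e6) reached 1 in at least 1 of the 3 groups, which left 279 of the 2812 CR genes among 17493 genes in the count table. The 3 groups, of 3 replicate samples each, were S2-DGRC cells given GFP dsRNA (mitotic control cells), CycA dsRNA or Myb dsRNA (the latter both induced endoreplicating cells, called CycA iECs and Myb iECs here), and RNA was taken at 96 h. S2 is an embryo-derived line with hemocyte features, so the replicates are treatments of one line. The labels give 12% serum for all groups, whereas the methods give a lower share for S2 cells than for iECs, so a difference in serum between groups was not tested.

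By symbol, 151 members were lncRNAs, 97 were antisense RNAs (asRNA), 5 were hairpin RNAs (hpRNA) and 3 were stable intronic sequence RNAs (sisRNA). The remaining members were a histone pseudogene, a 28S rRNA pseudogene and 21 genes with no prefix, all pseudogenes in the annotation, so the label of long noncoding and antisense RNA does not hold for these 23. Among the lncRNA symbols, 2 are also annotated as pseudogenes and 1, *lncRNA:CR43051*, as protein coding. Because a level chose the members, their levels are a description. Levels given below are CPM scaled by TMM library factors, except at the threshold itself, and log2 fold changes with their SE come from edgeR. Calls between groups were read only for the 209 members at 1 CPM or more in every group, since a member that passed through 1 high group had to differ, and the other 70 are described by their values without a test.

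A long noncoding RNA is transcribed by RNA polymerase II, and usually capped and polyadenylated, but encodes no known protein. Some act at their site of transcription, some are the primary transcripts from which Drosha cuts miRNA hairpins, and hairpin RNAs are cut by Dicer-2 into endogenous siRNAs. An antisense RNA overlaps a gene on the other strand and may affect it through transcription, chromatin or RNA pairing, or not at all. Unstable noncoding transcripts are removed by the nuclear exosome. Because the libraries were made from poly-A tailed RNA, untailed forms and the mature small RNAs are not measured here.

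Libraries held 29128930 to 44280452 counts. The dsRNAs lowered their targets, *CycA* from 184 to 30.7 CPM in CycA iECs and *Myb* from 215 to 13.7 CPM in Myb iECs. Of 10 hemocyte markers, 8 had enough counts to be tested. *srp*, *Pxn* and *crq* averaged 47.4 to 491 CPM in every group, and the crystal cell genes *PPO1* and *lz* were near 0. Levels of the other markers are not given here, and *He* and *eater* among them differed strongly between groups (below). GFP replicate 2 stood apart from the other control libraries in a trend with gene length (Spearman's rho of -0.683 between exon length and the deviation from the group mean, against 0.578 and 0.353), and results that depend on it are given with and without it. Reads were assigned by strand: of 33 genes lying wholly within exons of an opposite-strand gene with at least 9000 counts, the median count was 0.0558% of that of the covering gene. What share of a weak member's count came from reads of the other strand was not tested.

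Members were spread over the genome, with 39 on 2L, 54 on 2R, 63 on 3L, 57 on 3R, 55 on X, 10 on the small chromosome 4 and 1 on Y (Release 6, BDGP6.54 annotation). They were short and weakly expressed. Their median exon length was 1061 bases (186 to 21055), 138 had a single exon, and their median level was 2.50 CPM (0.519 to 1979). Per kb of exon the median was 2.85 CPM per kb, compared with 22.3 CPM per kb for the 7158 other genes at 1 CPM or more in every group. Only 47 members had a mean of 10 CPM or more and 167 had 1 to 5 CPM. The threshold was reached by 232 members in control cells, 245 in CycA iECs and 251 in Myb iECs. *lncRNA:CR45474* (1.01 CPM in its highest group), *lncRNA:CR45232* (1.01) and *lncRNA:CR46252* (1.01) lay just inside it, and *lncRNA:CR45217* (0.993), *lncRNA:CR45176* (0.988) and *asRNA:CR46018* (0.981) just outside.

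A single gene made up much of the noncoding signal. *lncRNA:CR42862* (FBgn0262109, 3L, 224106 to 230964, plus strand, 3 exons), a gene of unknown function, gave 1752, 1620 and 1799 CPM in the control libraries, 2237, 2306 and 2263 in CycA iECs and 1872, 1999 and 1964 in Myb iECs. These values were 40.9% to 51.3% of the summed CPM of all members in a library, and its 361 CPM per kb was the highest of any member. The groups did not overlap, but the changes stayed under the fold threshold (log2 fold change 0.40 ± 0.05 SE in CycA dsRNA and 0.17 ± 0.05 in Myb iECs, adjusted p = 1.32e-05 and 0.0137). Summed over members, the level was 4028 ± 110 CPM (SD, n = 3 here and below) in control cells, 4546 ± 90.1 in CycA iECs and 3890 ± 103 in Myb iECs. Without *lncRNA:CR42862* the sums were 2305 ± 75.1, 2278 ± 60.5 and 1945 ± 69.3 CPM. Without it, the CycA dsRNA and control sums overlapped within their SD and the Myb dsRNA sum remained the lowest.

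**Figure D1:**
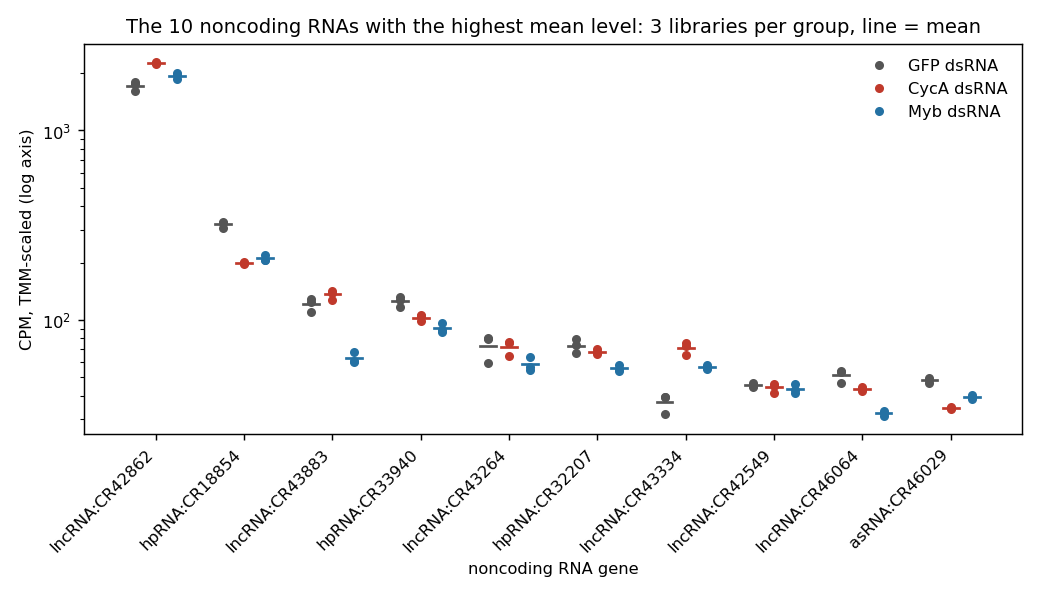
TMM-scaled CPM on a log axis for the 10 members with the highest mean level, with 1 point per library, a line at each group mean and 3 libraries per group. *lncRNA:CR42862* gives 1620 to 2306 CPM over the libraries, and *lncRNA:CR43883* is lowest in Myb iECs, at 62.9 CPM on average.

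Other abundant members behaved differently from each other. *lncRNA:CR43883* (3L, 820759 to 821512, single exon) averaged 121 ± 9.29 CPM in control cells, 136 ± 8.05 in CycA iECs and 62.9 ± 4.27 in Myb iECs. *lncRNA:CR43264*, on X, averaged 73.3 ± 11.9, 72.4 ± 6.76 and 58.5 ± 4.87 CPM and was not called in any comparison. *lncRNA:CR42549*, which lies within *mura* on the same strand and shares 4.93% of its exon with it, stayed at 45.3 ± 1.20, 44.2 ± 2.63 and 43.3 ± 2.54 CPM. No comparison called it, while *mura* was called higher in CycA iECs (log2 fold change 0.83). *lncRNA:CR46064* and *asRNA:CR46029* were lower in both kinds of iEC by point estimate, and among these 4 values only that of *lncRNA:CR46064* in Myb iECs passed both thresholds (51.4 ± 4.20 CPM in control cells and 32.2 ± 0.996 CPM in Myb iECs, log2 fold change -0.67).

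Hairpin RNAs had the highest median level of the classes, 58.0 CPM per kb over 5 members, and all 5 had negative log2 fold changes in both kinds of iEC, of which 2 were called in each, beside 14.1% and 6.78% of all genes called lower. *hpRNA:CR18854* (esi-1, 2L, 9787294 to 9790745), a source of endogenous siRNAs, gave 306, 328 and 326 CPM in control cells, 204, 199 and 196 in CycA iECs and 206, 209 and 220 in Myb iECs. All 6 iEC libraries lay below all 3 controls, at -0.68 ± 0.04 and -0.60 ± 0.04 on the log2 scale (adjusted p = 6.06e-09 and 7.32e-08). *hpRNA:CR46342*, chosen after its values were seen, was the other member of the class to be called, from 2.38 ± 0.0680 CPM in control cells to 1.60 ± 0.366 and 1.58 ± 0.575 (log2 fold changes -0.55 and -0.58, adjusted p = 0.0308 and 0.0276). It shares 22.8% of its exon with the coding gene *CG44774* on the same strand, which averaged 28.9 CPM over all libraries. Whether reads of *CG44774* enter its count was not tested. *hpRNA:CR33940*, *hpRNA:CR32207* and *hpRNA:CR32205*, which sit on 3L, had log2 fold changes of -0.29, -0.10 and -0.25 in CycA iECs and -0.48, -0.40 and -0.27 in Myb iECs, none past the fold threshold. Their mature siRNAs were not measured.

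In CycA iECs, 44 of the 209 members were called higher than in control cells and 32 lower, that is 21.1% and 15.3%, with a median log2 fold change of 0.02. A member is called here when its log2 fold change is 0.5 or more in either direction and its adjusted p is under 0.05 in edgeR's quasi-likelihood test over all 9231 genes tested, of which 21.2% were called higher and 14.1% lower. The members' shares were close to these. Among the 7158 other genes at 1 CPM or more in every group, the shares were 13.2% higher and 16.2% lower. Against these genes the members' share called higher was the larger, a difference that was not tested. They passed the same floor but were not matched in level, with a median of 49.7 CPM against 3.93 CPM for the members. Without GFP replicate 2 the members' counts were 46 and 37, and with the trend in gene length removed they were 57 and 30.

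Counts by class are set beside the 21.2% of all genes called higher and the 14.1% called lower in CycA iECs. Of 112 lncRNAs, 26 were called higher and 9 lower (23.2% and 8.04%, median log2 fold change 0.23). Of 72 antisense RNAs, 15 were higher and 16 lower (20.8% and 22.2%, median -0.03). Members whose exons overlap no other counted gene gave 22 higher and 8 lower of 94 (23.4% and 8.51%, median 0.23). Those overlapping an exon on the opposite strand gave 19 and 23 of 101 (18.8% and 22.8%, median -0.10). The shares called higher lay near that of all genes, and those called lower lay on both sides of the 14.1%. The difference between classes was not tested, and the count of higher lncRNAs rose to 39 once the trend in gene length was removed.

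**Figure D2:**
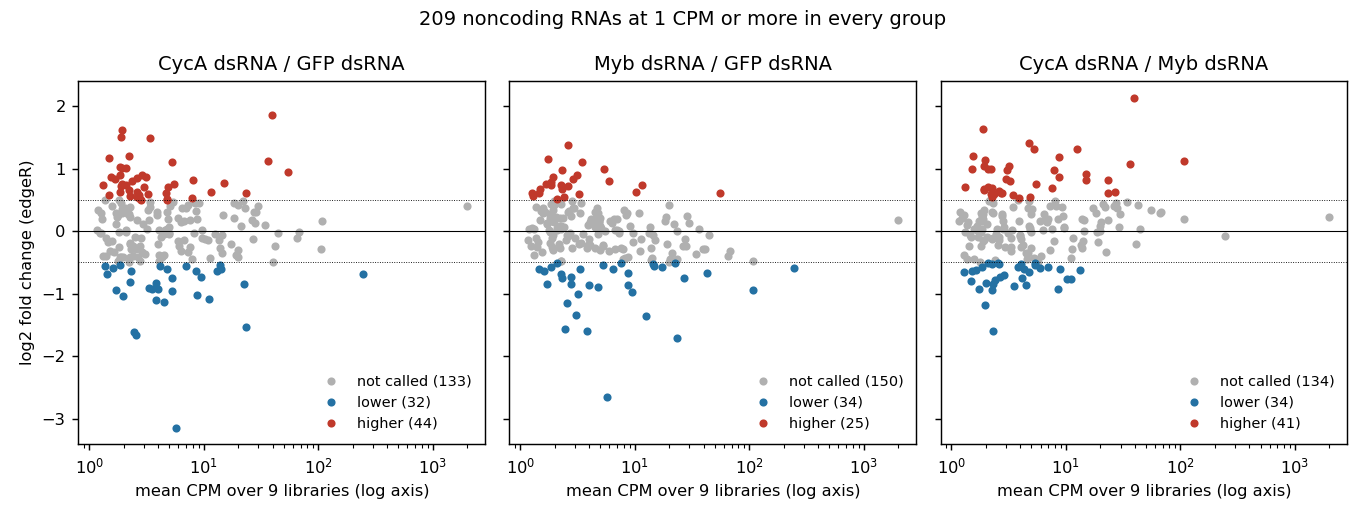
Log2 fold change against mean CPM over 9 libraries (log axis) for the 209 members at 1 CPM or more in every group, in the 3 comparisons, with 1 point per gene, colours for the edgeR call and dotted lines at the fold threshold of 0.5. Called members spread over the range of levels, and *asRNA:CR45912* lies lowest in both comparisons with GFP dsRNA (-3.14 and -2.65).

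Rises in CycA iECs included both abundant and scarce RNAs. Most members named for a rise or fall here and below were picked among called members whose libraries of the 2 groups did not overlap. For those members the call and the separation of libraries were fixed by that choice and add no further support. The pseudogene *CR18228* (FBgn0037560, 3R, 8260706 to 8261898, minus strand) rose the most, from 19.3, 22.5 and 23.0 CPM in control cells to 74.6, 78.0 and 81.1 CPM, and read 17.1, 15.4 and 20.3 CPM in Myb iECs. The CycA dsRNA libraries lay above all 6 others (log2 fold change 1.86 ± 0.08, adjusted p = 8.42e-11 against GFP dsRNA, and 2.14 ± 0.08, adjusted p = 2.59e-11 against Myb dsRNA). As a pseudogene it may share reads with a related gene, and its parent gene was not examined. *lncRNA:CR46003* (3L, 10286945 to 10307968, minus strand), at 21055 bases the longest member, went from 27.1, 22.3 and 28.3 CPM to 54.1, 57.2 and 57.3 CPM, with 27.0, 25.0 and 27.8 CPM in Myb iECs. Its CycA dsRNA libraries were above the rest (1.12 ± 0.07, adjusted p = 4.74e-09 against GFP dsRNA), also against Myb dsRNA (1.08 ± 0.07). Both calls held with the length trend removed and without GFP replicate 2, but the sizes under these settings are not given here. For *lncRNA:CR43334*, of 15466 bases, removing the trend lowered the value in CycA iECs from 0.95 to 0.52.

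*asRNA:CR44137* lies within *Csk*, the C-terminal Src kinase, on the opposite strand, and *asRNA:CR43465* lies wholly over *Ucp4B*, a mitochondrial carrier gene with almost no counts of its own. They rose from 1.20 ± 0.166 to 3.39 ± 0.566 CPM and from 1.03 ± 0.0356 to 2.30 ± 0.256 CPM in CycA iECs (log2 fold changes 1.51 and 1.17), with values of -0.11 and 0.17 in Myb iECs that were not called. The pseudogene *CR43275* rose by 1.21 and *asRNA:CR45175* by 1.10, and *asRNA:CR45175* reached 8.52 ± 0.366 CPM against 3.99 ± 0.483 in control cells. Of these 4 RNAs, all were also called higher than in Myb iECs, by 0.99 to 1.63 on the log2 scale.

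The largest falls in CycA iECs were mostly of antisense RNAs. *asRNA:CR45912* (FBgn0267572, 3L, 18858690 to 18866107, minus strand, single exon) runs over *mir-315*, a miRNA gene known for its effect on Wingless signalling, on the opposite strand. It gave 13.2, 13.9 and 13.6 CPM in control cells, 1.25, 1.70 and 1.57 in CycA iECs and 2.06, 1.99 and 2.38 in Myb iECs. Every iEC library lay far below every control library, by -3.14 ± 0.12 (adjusted p = 3.79e-12) and -2.65 ± 0.10 (adjusted p = 3.04e-11) on the log2 scale. Among genes overlapping it on the other strand, *lncRNA:CR45388* averaged 0.0395, 0.0237 and 0.00800 CPM in the 3 groups, so these values lie far below its own.

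*lncRNA:CR44526* (3L, 8692703 to 8693191, plus strand, single exon), which overlaps no other counted exon, fell from 33.3, 44.8 and 49.6 CPM to 13.7, 14.1 and 16.1 CPM in CycA iECs and 10.7, 13.6 and 14.8 CPM in Myb iECs. Its control values varied more than the others, but every control library lay above every iEC library (log2 fold changes -1.53 ± 0.13 and -1.71 ± 0.14, adjusted p = 1.27e-07 and 1.24e-07). *asRNA:CR43864*, *asRNA:CR44367* and *asRNA:CR44807* went from 4.34 ± 0.216, 4.42 ± 0.683 and 6.34 ± 0.847 CPM in control cells to 1.37 ± 0.147, 1.45 ± 0.0875 and 2.98 ± 0.322 CPM in CycA iECs. In Myb iECs the same 3 RNAs measured 1.95 ± 0.311, 1.49 ± 0.176 and 2.08 ± 0.195 CPM, and all 6 falls were called. Both comparisons share the control libraries, so a low or high control value enters both.

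*asRNA:CR43964*, *lncRNA:CR45233* and the histone pseudogene *His-Psi:CR31614* fell in CycA iECs (log2 fold changes -1.09, -1.04 and -1.13) and were not called in Myb iECs (-0.32, 0.15 and -0.27). Each was called lower in CycA iECs than in Myb iECs (-0.77, -1.19 and -0.86). The histone pseudogene lies among near-identical histone genes whose messages lack a poly-A tail, so its counts are uncertain.

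In Myb iECs, 25 of the 209 members (12.0%) were called higher than in control cells and 34 (16.3%) lower, with a median log2 fold change of 0.01. Of all genes tested, 14.9% were called higher and 6.78% lower, and of the other genes at 1 CPM or more in every group 6.55% and 6.9%. Members were thus called lower at a larger share than either background and called higher at a share between them, and this difference was not tested. Without GFP replicate 2 the counts were 27 and 32, and with the trend in gene length removed 33 and 28. The lncRNAs gave 16 higher and 17 lower, the antisense RNAs 9 and 13, and without GFP replicate 3 the count of higher antisense RNAs was 5. With the length trend removed the lncRNA counts were 22 higher and 13 lower, and without GFP replicate 2 they were 18 and 17.

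Some members were lower in Myb iECs than in both other groups. *lncRNA:CR43883*, described above, read 111, 129 and 125 CPM in control cells, 127, 139 and 143 in CycA iECs and 60.6, 60.2 and 67.8 in Myb iECs (log2 fold change -0.95 ± 0.06, adjusted p = 2.64e-08 against GFP dsRNA, and 1.12 ± 0.06 for CycA dsRNA over Myb dsRNA, adjusted p = 1.57e-09). *lncRNA:CR44138* (3R, 13376903 to 13377395) read 14.1, 16.6 and 17.2 CPM in control cells, 12.1, 18.2 and 15.7 in CycA iECs and 5.44, 6.59 and 6.75 in Myb iECs. The Myb dsRNA libraries lay below all 6 others for both genes. *lncRNA:CR44522*, *lncRNA:CR43475* and *lncRNA:CR43493* had the same order, with log2 fold changes in Myb iECs of -1.34, -1.0 and -0.86 and CycA dsRNA over Myb dsRNA values of 0.97, 1.04 and 1.18. None of these 5 lncRNAs shares exon sequence with another counted gene.

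Of the 25 members called higher in Myb iECs, 20 averaged under 5 CPM over all libraries, as did 34 of the 44 called higher in CycA iECs. The median level of the 209 members was 3.93 CPM. *lncRNA:CR43148* went from 3.69 ± 0.264 CPM to 7.36 ± 0.323 CPM, and its 5.07 ± 0.347 CPM in CycA iECs lay between (log2 fold changes 1.00 and 0.46, the latter not called). *lncRNA:CR45054* (3R, 10083381 to 10090525, plus strand) rose in both, from 1.87, 1.41 and 1.86 CPM to 3.92, 5.38 and 5.10 CPM in CycA iECs and 3.32, 3.98 and 3.96 CPM in Myb iECs. All iEC libraries lay above the controls (1.49 ± 0.15 and 1.11 ± 0.16, adjusted p = 5.04e-07 and 2.97e-05). *lncRNA:CR44331* also rose in both, by 0.89 and 0.83, from 1.86 ± 0.283 CPM. *asRNA:CR44982* rose by 1.15 in Myb iECs from 1.19 ± 0.136 CPM, and *asRNA:CR45124*, on chromosome 4 opposite the plexin receptor gene *PlexB*, by 0.87 from 1.29 ± 0.246 CPM.

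**Figure D3:**
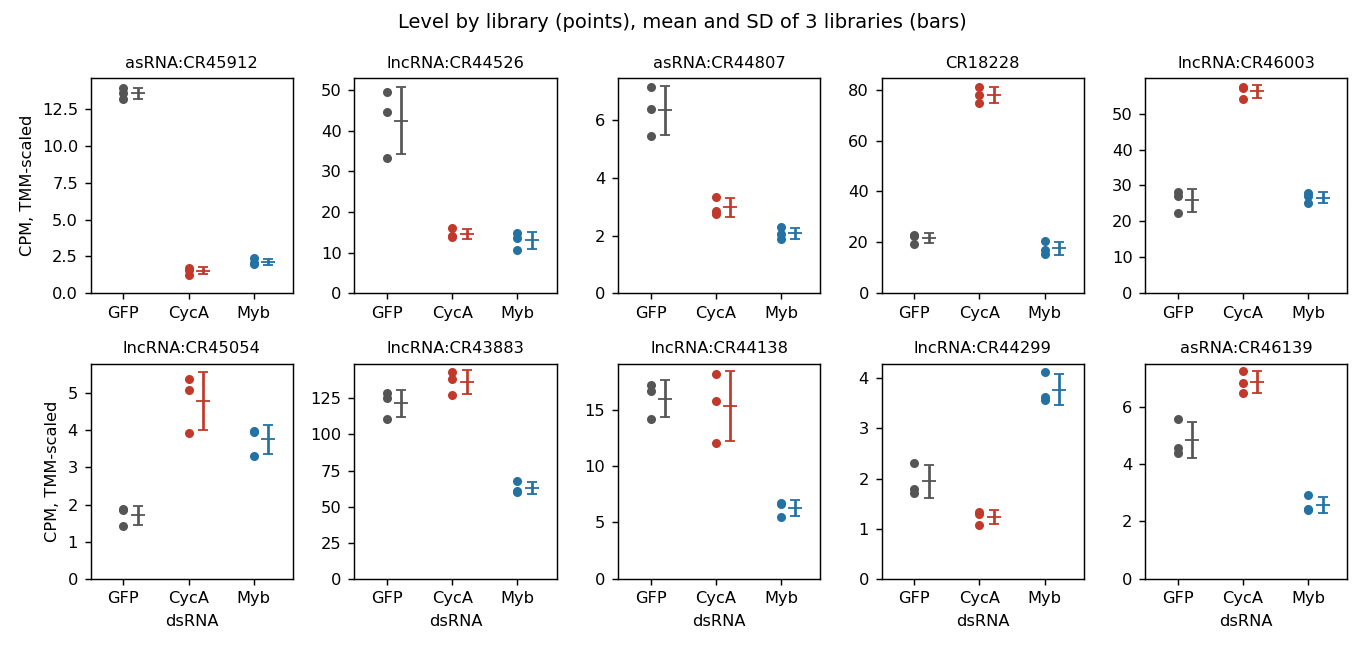
TMM-scaled CPM by library for 10 members, with points for libraries and bars for the mean and SD of 3 libraries, on linear axes that start at 0. The first 3 panels show RNAs lower in both kinds of iEC, *CR18228* and *lncRNA:CR46003* are high in CycA dsRNA libraries alone among the 3 groups, *lncRNA:CR43883* and *lncRNA:CR44138* are low in Myb dsRNA libraries, and the last 2 panels show RNAs that lie on opposite sides of the control in the knockdowns.

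Compared directly, 41 members were higher in CycA iECs than in Myb iECs and 34 lower (19.6% and 16.3%), beside 15.4% and 14.5% of all genes tested and 12.5% and 12.3% of the other genes at 1 CPM or more in every group. *lncRNA:CR45643* (2.31 ± 0.426 CPM in the CycA and 1.02 ± 0.0109 in the Myb knockdown) was among those higher. Among those lower were *lncRNA:CR45681* (-0.94 on the log2 scale), the pseudogene *CR14033* (-0.93), *asRNA:CR44368* (-0.88) and *asRNA:CR45891* (-0.85). A pair of RNAs was called in opposite directions against the control. *asRNA:CR46139* read 4.39, 5.57 and 4.55 CPM in control cells, 6.48, 7.23 and 6.83 in CycA iECs and 2.40, 2.42 and 2.91 in Myb iECs. The 3 groups did not overlap, and the direct log2 fold change was 1.41 ± 0.12 (adjusted p = 6.39e-08), but the rise in CycA iECs (0.52) sat at the fold threshold and was not called without GFP replicate 1 (0.44), GFP replicate 3 (0.44), CycA replicate 2 (0.47), Myb replicate 1 (0.48) or Myb replicate 2 (0.48). *lncRNA:CR44299* read 1.80, 2.31 and 1.72 CPM in control cells, 1.07, 1.28 and 1.33 in CycA iECs and 3.64, 3.56 and 4.13 in Myb iECs. It fell by 0.63 in the former and rose by 0.97 in the latter on the log2 scale (adjusted p = 0.00294 and 2.03e-05).

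Host genes of miRNAs formed a group defined by the annotation. In all, 10 members contain a miRNA gene on their own strand and 1, *lncRNA:CR31451*, overlaps one in part, and 9 of these 11 were at 1 CPM or more in every group. In CycA iECs 6 of the 9 were called higher and 0 lower, and in Myb iECs 4 were called higher and 0 lower, by edgeR and by DESeq2, beside the 21.2% and 14.9% of all genes called higher. At an unadjusted p under 0.05, 0 hosts were lower in either knockdown. Host exons had a median length of 5106 bases, and length moved with GFP replicate 2: with the length trend removed the hosts called higher were 4 in each knockdown, and without that library 5 in each. Transcription and processing of the hairpins cannot be told apart in these libraries.

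*lncRNA:CR43334* (3L, 628435 to 643900, plus strand, a single exon of 15466 bases) is the primary transcript of *bantam*, a miRNA that promotes growth and blocks cell death. It gave 39.2, 32.1 and 39.5 CPM in control cells, 65.4, 72.8 and 76.0 in CycA iECs and 55.1, 58.1 and 56.2 in Myb iECs. All iEC libraries lay above the controls (log2 fold changes 0.95 ± 0.07 and 0.61 ± 0.07, adjusted p = 2.83e-08 and 7.68e-06), and with the length trend removed the values were 0.52 and 0.25, the second no longer called. *lncRNA:CR43651*, host of *mir-14*, which limits cell death and fat storage, is shorter at 1097 bases and gave 2.20, 1.88 and 1.92 CPM in control cells, 3.45, 3.65 and 3.82 in CycA iECs and 3.80, 3.75 and 3.70 in Myb iECs. Its log2 fold changes of 0.86 ± 0.11 and 0.90 ± 0.11 became 1.02 and 1.00 with the length trend removed.

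*lncRNA:CR44206*, which carries *mir-184*, a miRNA needed in the female germline, gave 1.57, 1.5 and 1.29 CPM in control cells, 2.56, 2.72 and 2.62 in CycA iECs and 4.12, 4.01 and 3.27 in Myb iECs. The 3 groups did not overlap (0.85 ± 0.14 and 1.37 ± 0.14). *lncRNA:CR43857*, host of *mir-275*, rose in CycA iECs from 1.17, 1.30 and 0.744 CPM to 2.95, 3.95 and 2.94 CPM, with 1.46, 1.44 and 1.61 CPM in Myb iECs (1.62 ± 0.19, and 0.48 ± 0.21, not called). *lncRNA:CR43459*, which carries *mir-277* and *mir-34*, lies just downstream of *lncRNA:CR45054* on the same strand (3R, 10093761 to 10101356) and rose in CycA iECs alone of the 2 knockdowns, by 0.61 (0.61 in the direct comparison), a value that was 0.36 and not called with the length trend removed.

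The other hosts changed less or in 1 knockdown. *lncRNA:CR31451*, which overlaps *mir-9381*, rose in Myb iECs by 0.63, from 8.80 ± 0.339 to 13.7 ± 0.341 CPM, against -0.13 in CycA iECs. *lncRNA:CR46194*, which carries both *mir-281* genes, had 0.50 and 0.47, and its call in CycA iECs was lost without GFP replicate 2 (0.38), CycA replicate 2 (0.43) or any of the Myb libraries (0.46 to 0.50). It lies within the coding gene *Oda* on the same strand and shares 16.8% of its exon with it. *Oda* averaged 372 CPM over all libraries against 2.82 CPM for the host, and was not called (0.14 and -0.04). Whether reads of *Oda* enter the count of the host was not tested. *lncRNA:CR31044* (*mir-279* and *mir-996*) and *lncRNA:CR46006* (*mir-276a*) were not called in either, with 0.38 and 0.40 in CycA iECs. Under the level in a group were *lncRNA:CR43626* (*mir-282*), at 0.662 ± 0.201, 2.20 ± 0.141 and 1.33 ± 0.202 CPM, and *asRNA:CR46354*, with *mir-252* on its strand outside its exons, at 1.69 ± 0.423, 3.60 ± 0.251 and 0.955 ± 0.134 CPM in control, CycA dsRNA and Myb dsRNA cells. The snoRNA hosts *lncRNA:CR42491*, within the ribosomal protein gene *RpL22*, and *lncRNA:CR43051* were not called in any comparison.

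**Figure D4:**
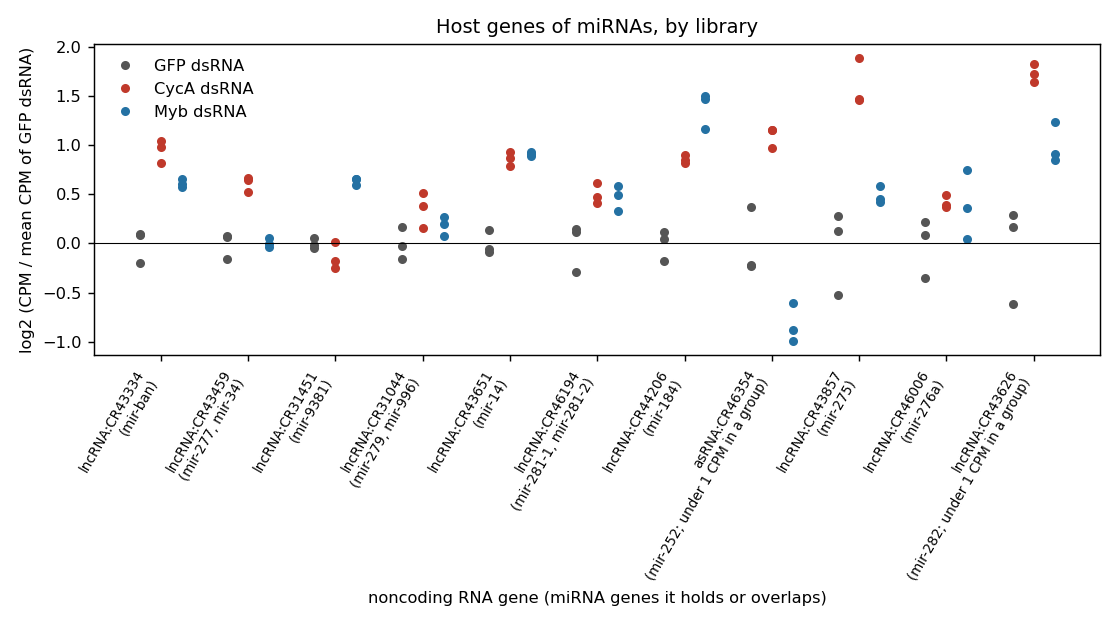
Log2 of the CPM in each library over the mean CPM of GFP dsRNA for the 11 members that contain or overlap miRNA genes, in order of level, with 1 point per library and 3 libraries per group. CycA dsRNA libraries lie above the controls for the hosts of *bantam*, *mir-14*, *mir-184* and *mir-275*, and the host of *mir-9381* is raised in Myb dsRNA libraries.

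Members of any class were next set beside the coding genes whose exons they overlap on the opposite strand, including genes too weakly counted to be tested. Of 91 pairs with the member at 1 CPM or more in every group, the member exceeded its partner in 38 and was under 1% of it in 3, with a median of 68.1% of the partner's level, all in CPM per kb of exon. In the 79 pairs with a tested partner, the log2 fold changes of member and partner had Pearson's r = 0.01 and Spearman's rho = 0.01 in CycA iECs and r = 0.00 and rho = -0.01 in Myb iECs, as a description over pairs that share all 9 libraries. In CycA iECs 35 members of these pairs were called, and the partner was not called in 26, called in the same direction in 3 and in the opposite direction in 6. In Myb iECs the corresponding numbers were 24, 14, 5 and 5. Where the member was not called, the partner was called in 16 pairs and not called in 28 in CycA iECs. The Myb iEC numbers were 11 and 44. Of all genes tested, 21.2% were called higher and 14.1% lower in CycA iECs, and 14.9% and 6.78% in Myb iECs. The difference between these counts was not tested.

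**Figure D5:**
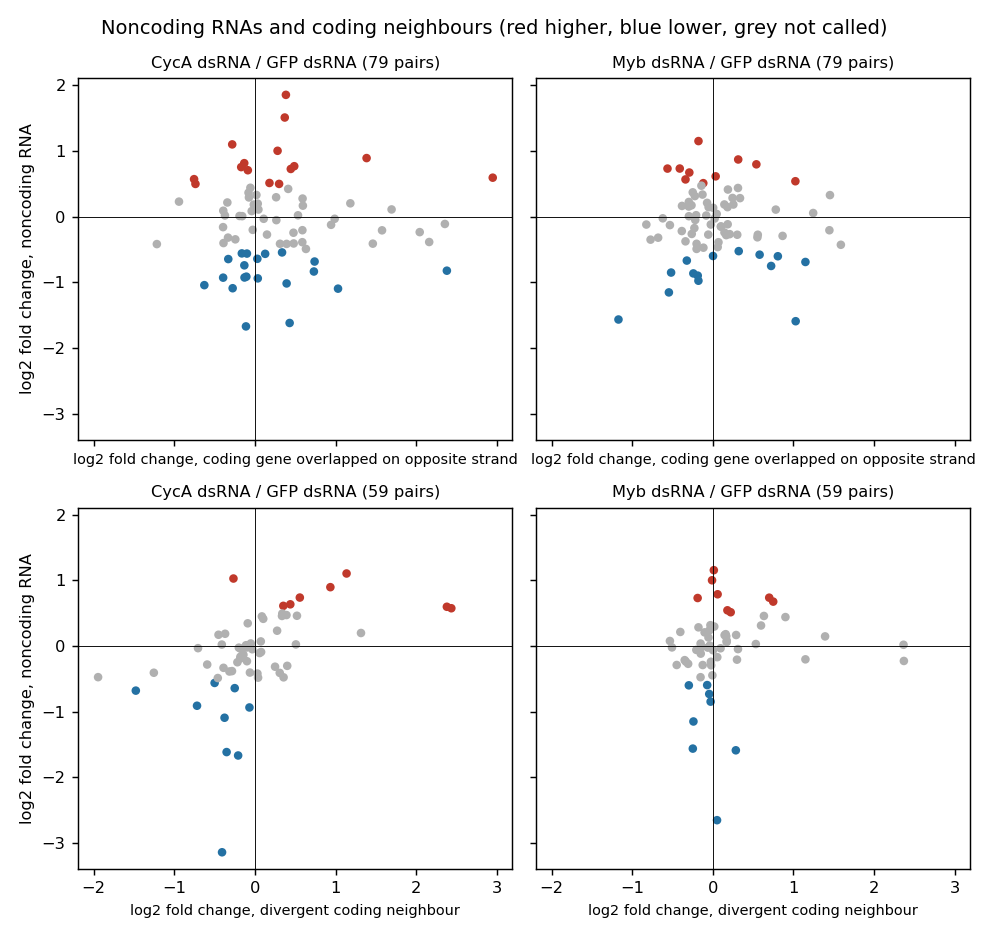
Log2 fold change of members (vertical axis) against that of coding genes overlapped on the opposite strand (top, 79 pairs) or divergent coding neighbours (bottom, 59 pairs), in CycA dsRNA (left) and Myb dsRNA (right) iECs relative to GFP dsRNA, 1 point per pair with colours for the member's call. Points scatter around both axes for overlapped genes, and for divergent neighbours in CycA iECs the points lean along the diagonal (Pearson's r = 0.47).

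Named pairs show the range. *asRNA:CR44807* fell in both knockdowns while *CG4797*, which it overlaps over 71.1% of its exon, was called higher in both (log2 fold changes 1.03 and 1.03). *asRNA:CR44137* rose by 1.51 in CycA iECs at 3.88% of the per-kb level of *Csk*, which had 0.37 and was not called. *asRNA:CR44367* fell by 1.62 and 1.56, and *CG6553*, which it covers, had 0.43 in CycA iECs, not called, and -1.17 in Myb iECs. *asRNA:CR44793*, chosen after its values were seen, fell in both (-0.91 and -0.60) opposite the condensin II subunit gene *Cap-D3*, which had -0.11 and 0.81 and was called higher in Myb iECs. The coding gene *CG31648*, which starts 14 bases from it and is transcribed away from it, had -0.72, called lower, in CycA iECs. In Myb iECs *CG31648* had -0.30 and was not called.

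Coding genes that start within 1000 bases of a member's start and are transcribed away from it were examined after the values were seen. In 59 such pairs the log2 fold changes had r = 0.47 and rho = 0.61 in CycA iECs and r = 0.14 and rho = 0.33 in Myb iECs, a description over pairs from the same libraries. Of 17 members called in CycA iECs, 6 had a neighbour called in the same direction and 0 in the opposite direction, and of 16 in Myb iECs 2 and 0. Of the 42 pairs whose member was not called in CycA iECs, 2 neighbours were called higher and 4 lower, and of the 43 such pairs in Myb iECs 6 and 2, beside 21.2% and 14.1%, and 14.9% and 6.78%, of all genes. The difference between these counts was not tested. *asRNA:CR45175* and *CG5577* rose by 1.10 and 1.14 in CycA iECs, and *asRNA:CR44095* and *CG8066* by 0.89 and 0.94. *hpRNA:CR18854* fell by 0.68 in CycA iECs beside a fall of 1.48 for *CG4036*, and by 0.60 in Myb iECs, where *CG4036* had -0.07 and was not called. Large falls without the neighbour were also seen, as *asRNA:CR45912* fell by 3.14 beside -0.41 for *CG14074*, and *asRNA:CR44367* by 1.62 beside -0.35 for *Echs1*, a gene of fatty acid oxidation, neither neighbour being called.

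Some members were detected at 1 CPM or more in a single group, 5 in control cells, 16 in CycA iECs and 18 in Myb iECs. Of the members under 1 CPM in at least 1 group, *asRNA:CR45806*, which lies wholly within exons of *CG7049* on the opposite strand, ranged the most. It read 1.03, 1.36 and 1.17 CPM in control cells, 0.285, 0.198 and 0.107 in CycA iECs and 6.63, 5.97 and 6.63 in Myb iECs. *asRNA:CR46107*, opposite *CG11843*, had the same order, at 0.754 ± 0.0937, 0.328 ± 0.0741 and 5.44 ± 0.268 CPM, as did *lncRNA:CR44294*, at 0.944 ± 0.156, 0.186 ± 0.0552 and 2.25 ± 0.337 CPM. *lncRNA:CR45298* reached 8.42 ± 0.255 CPM in Myb iECs from 1.13 ± 0.0591 in control cells and 0.808 ± 0.136 in CycA iECs. For these 4 the Myb dsRNA libraries were the highest of the 9.

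*lncRNA:CR43239* was high in CycA iECs instead, with 5.30, 5.51 and 5.90 CPM against 0.967, 1.01 and 0.801 in control cells and 0.960, 1.11 and 1.61 in Myb iECs. *lncRNA:CR44970* had 1.78 ± 0.214 CPM there against 0.311 ± 0.165 and 0.379 ± 0.0800. *lncRNA:CR45953*, at 0.137 ± 0.0375 CPM in the controls and 1.61 ± 0.289 CPM in CycA iECs, lies within *rgn*, a C-type lectin gene, on the same strand without sharing an exon. *rgn* itself had a log2 fold change of 4.0 in those cells, and whether unspliced *rgn* RNA enters the count was not tested. *lncRNA:CR44127* was low in Myb iECs, at 0.312 ± 0.0146 CPM against 1.39 ± 0.161 in control cells and 1.53 ± 0.148 in CycA iECs. Levels of all 8 chose their place here, so no test is given.

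Beside the shares of all genes called higher and lower, 21.2% and 14.1% in CycA iECs and 14.9% and 6.78% in Myb iECs, the counts of smaller sets were as follows. Pseudogenes with no prefix gave 3 higher and 4 lower of 17 in CycA iECs and 0 higher and 2 lower in Myb iECs (edgeR and DESeq2 alike, with 2 higher and 7 lower at an unadjusted p under 0.05). Members on X gave 6 higher and 5 lower of 48 in CycA iECs and 2 and 5 in Myb iECs, compared with 38 and 27, and 23 and 29, of 160 autosomal members. Neither the pseudogenes nor the X members were tested as a set. The sisRNAs, which lie within the coding genes *Calr*, *Csp* and *RpS27*, on their strand without sharing exons, were not called where at 1 CPM or more in every group.

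Genes that make, process or clear noncoding RNA were read from lists. The exosome and exonuclease list had 9 of 13 genes called lower in CycA iECs, beside 14.1% of all genes, and 1 of 13 in Myb iECs. The core subunit gene *Rrp40* fell by 1.14 and 0.78 and *Rrp46* by 1.09 in CycA iECs, while the nuclear catalytic subunit gene *Rrp6* was not called (-0.26 and 0.16), and neither were the 5-prime exonuclease genes *pcm* and *Rat1*. Of the 14 genes of the Integrator complex, which ends transcription of short and unstable RNAs, 0 were called in either knockdown by edgeR or DESeq2, with 2 higher and 8 lower in CycA iECs and 3 and 1 in Myb iECs at an unadjusted p under 0.05. Among named lncRNAs outside the rule, *lncRNA:roX1*, which targets the dosage compensation complex to the X, rose in both, from 61.0 to 133 and 110 CPM (log2 fold changes 1.13 and 0.84), while *lncRNA:roX2* fell by 0.56 in CycA iECs and *lncRNA:Hsromega*, a stress-induced nuclear RNA, rose by 0.56. Marker lists were read beside the 21.2% and 14.9% of all genes called higher in CycA iECs and Myb iECs. Of the hemocyte markers, 5 of 8 tested were called higher in the former and 2 in the latter, with summed levels of 657 to 744 CPM in control, 1101 to 1161 in CycA dsRNA and 790 to 845 in Myb dsRNA libraries. Among these, *He* and *eater* rose by 4.79 and 3.99, while 2 of 3 tested muscle markers were called higher in each knockdown at summed levels of 0.973 to 2.81 CPM. Neuron markers had 3 and 2 of 4 called higher (summed 100.3 to 222 CPM), germline 2 and 4 of 5 (127 to 167 CPM), follicle cell 1 and 2 of 2 (1.59 to 4.81 CPM) and fat body 2 and 1 of 2 (2.48 to 6.19 CPM), with *Cp36* and *Lsp2* at or near 0. In cell populations, fewer cells of a type and less RNA per cell cannot be told apart, and the part of these lists in the members' changes was not tested.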

How the data were processed

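RNA-Seq libraries of 9 S2 cell samples (TruSeq Stranded mRNA) were examined, 3 per group by the titles. Per the labels, the authors checked reads with FastQC 0.11.5, aligned them with STAR 2.6.1a, and counted them per gene with featureCounts, and the methods name Dmel Release 6 as the genome. The table deposited by the authors gives raw counts (whole numbers, not normalized) and exon length per gene. Their comparison tables, which hold fold changes and p-values from DESeq2 1.14.1, were not used. The strand setting is not given in the sources used here.

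Tests used edgeR 4.0.16 under R 4.3.3 (TMM factors, a minimum count of 10, 9231 genes, quasi-likelihood test over all 9 libraries, Benjamini-Hochberg adjustment). Levels are TMM-scaled CPM. Positions and overlaps came from the BDGP6.54 annotation, in which 279 members were matched. The members and lists were chosen with earlier results of these data known. Named members were the 10 with the highest level, up to 8 called members with the largest rise and fall in each comparison whose libraries do not overlap, the 8 with the largest ratio of group means among those under 1 CPM in a group, members at the threshold and hosts of small RNAs, and other genes are the partners of these, the dsRNA targets, list members or chosen after their values were seen. Replicate numbers are not stated to mark shared cultures, so p-values measure the spread between these samples. Alternatives changed the tool (DESeq2 1.42.0), scaling, filter, threshold, groups, gene length, replicate block and libraries.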

Additional observations from a re-analysis of the deposited data

How the results depend on the processing

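With an adjusted p under 0.05 alone, the members called higher and lower were 78 and 59 in CycA iECs, 43 and 64 in Myb iECs, and 74 and 54 for CycA dsRNA over Myb dsRNA. With glmTreat, which tests against the fold threshold, they were 22 and 21, 9 and 16, and 26 and 14. Both differ from the main counts by the construction of the threshold. Under the other settings each count stayed within 1.5 times its main value, and leaving out each library in turn gave 39 to 46 and 31 to 38, 22 to 27 and 32 to 38, and 37 to 46 and 32 to 37. Of 81 called values of named members, 67 were called under all 19 settings and none changed sign. Same-numbered libraries correlated at -0.05 to 0.10 in their deviations from group means, and differently numbered ones at -0.09 to 0.04. For replicate 3 the library names carry another number in the knockdowns than in the control, so these values do not settle whether libraries were paired. With the replicate block the counts were 43 and 33, 25 and 34, and 42 and 34. TMM-scaled CPM in the rule gave 274 members, of which 210 were at the level in every group. RLE and upper-quartile scaling factors differed from the TMM factors of the same libraries by -0.02 to 0.04 on the log2 scale. Most members are near the level where counting noise is visible, with 167 between 1 and 5 CPM.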
